A study of Mus musculus with 12 samples.

Results

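The comparison sets GSK3 knockout mouse embryonic stem (ES) cells against unmodified ES cells while both were exposed to JQ1. It takes in 4 of the 12 RNA sequencing libraries of the series, 2 titled GSK3_KO_ESC_JQ1_SL and 2 titled ESC_JQ1_SL, chosen by those labels, and all genes. Of the 52550 gene identifiers in each table, 16987 had enough counts to be tested. Both groups were grown in a serum/LIF medium (SL) with 15% fetal bovine serum and 1000 U/ml of the cytokine LIF, which sustains self-renewal. Both received 100 nM JQ1 and were harvested after 60 h, and they differ by label only in the GSK3 knockout. Before treatment the cells were passaged from mitotically blocked mouse fibroblasts onto gelatin. The same 2 genotypes with the solvent DMSO in place of JQ1, again 2 libraries each, serve to ask where JQ1 changed the knockout effect. The remaining 4 libraries, unmodified cells in 2iL with DMSO or JQ1, entered the shared fit and no comparison. That medium has LIF, PD0325901 (a MEK inhibitor) and a component at 3 µM that the labels leave unnamed. The labels name neither the parental lines nor the clones, and do not say which GSK3 gene was targeted or how. Since no label states that the replicates came from separate cultures, the p-values reflect spread among these libraries alone, and it may be technical.

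GSK3 is a pair of closely related kinases, encoded by Gsk3a and Gsk3b, that work inside a destruction complex with the scaffolds Axin and Apc. There they phosphorylate beta-catenin, the product of Ctnnb1, and so mark it for degradation until a Wnt signal arrives. Stable beta-catenin enters the nucleus, switches on Wnt target genes with the TCF and LEF factors, and in ES cells relieves repression of naive pluripotency genes by Tcf7l1. JQ1 displaces the bromodomain proteins of the BET family from acetylated histones, which lowers transcription of genes that depend on them. Inhibition of GSK3 is part of the 2i medium that holds mouse ES cells in the naive ground state, and the title of the study places beta-catenin in that setting.

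The 4 libraries held 18952856 to 29882439 counts. Mitochondrially encoded genes took 6.45% and 7.51% of counts in the unmodified libraries and 7.2% and 8.43% in the knockout ones. Values are CPM (library-scaled counts, normalised to a fixed library total), in the order replicate 1, replicate 2, and changes are log2 fold changes of knockout over unmodified cells ± standard error. Genes are said to rise or fall where the adjusted p (edgeR quasi-likelihood test, Benjamini-Hochberg over 16987 genes) was under 0.05. A set of 7 ES cell markers was present in all libraries, and their summed level was 2660 and 2931 CPM in the knockout and 1657 and 2192 CPM in unmodified cells. A set of 10 fibroblast markers, which feeder cells would carry, summed to 243.8 and 186.2 CPM in the knockout and to 548.2 and 469.7 CPM in unmodified cells. Among these markers Lum was at 0 in knockout replicate 2, and all others had counts in all 4 libraries. In bulk RNA fewer cells of a type and less RNA per cell cannot be told apart.

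The groups also differed at genes that mark ES cell lines. Hprt, which encodes a purine salvage enzyme, stood at 142 and 165 CPM in the knockout and at 1.74 and 1.84 CPM in unmodified cells. That is a rise of 6.42 ± 0.19 with JQ1, and with DMSO the levels were 118 and 126 against 2 and 1.38 CPM. Nnt, a mitochondrial transhydrogenase, stood at 5.12 and 2.73 CPM in the knockout and 32.4 and 20.4 CPM in unmodified cells. The Y-linked genes Ddx3y and Uty were present in all 4 libraries, at 71.9, 84.6, 64.4 and 61.7 CPM for Ddx3y. With the parental lines not given, the loss of GSK3 and a difference between lines cannot be told apart in any result below.

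Of the 16987 genes 7473 passed (44%), 3458 higher in the knockout (20.4%) and 4015 lower (23.6%), and the median over all genes was -0.01. Changes of at least 1 on the log2 scale were counted in 963 higher and 2697 lower genes. Both knockout libraries stood above both unmodified ones in 36% of genes and below them in 37%. Among 30 gene lists, drawn up for this tissue and these agents with earlier results of these data known, 370 of 383 genes were tested. List counts set beside the shares of all genes are therefore a description. The lists moved unequally, as the plot of fold changes by list shows.

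**Figure D1:**
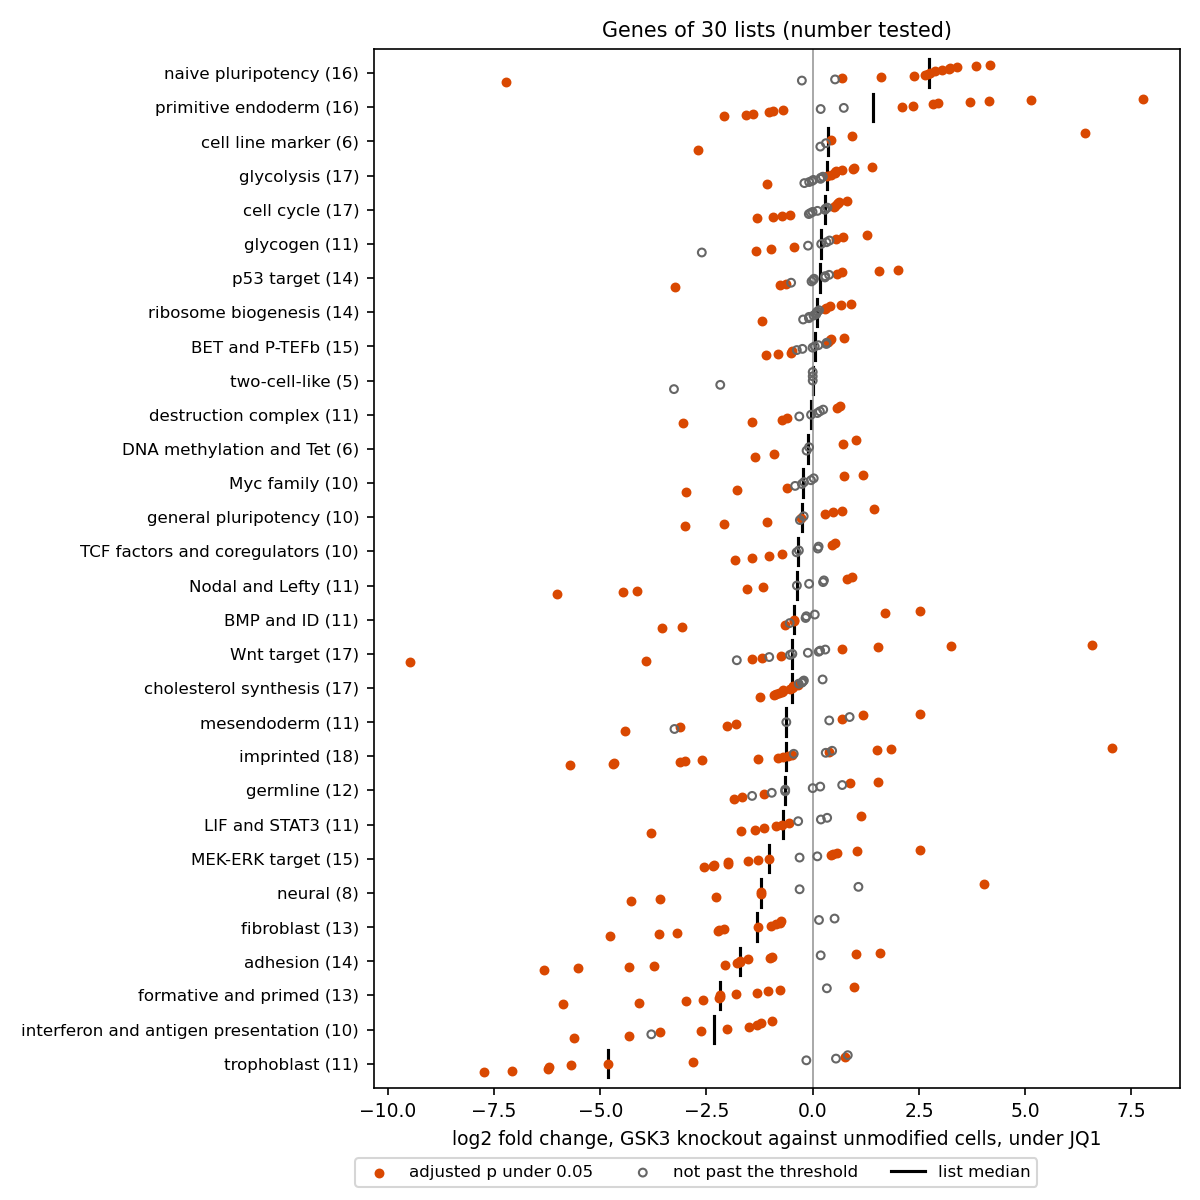
Log2 fold change of GSK3 knockout over unmodified cells under JQ1 for each tested gene of 30 lists, ordered by list median (bars). Filled points had an adjusted p under 0.05. The naive pluripotency list has the highest median, 2.73, and the trophoblast list, which holds the keratins, the lowest, -4.81; genes without counts in either group lie at 0.

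The genes that encode GSK3 come first, although the labels do not say which was targeted. In the knockout Gsk3a had 32.9 and 28.2 CPM and in unmodified cells 78.4 and 87.2 CPM (ENSMUSG00000057177.12, chromosome 7, 25228258 to 25237851, in GRCm38). Gsk3b (ENSMUSG00000022812.13, chromosome 16, 38089001 to 38246084) had 61 and 58 CPM in the knockout and 110.5 and 86.3 CPM in unmodified cells. Both fell, Gsk3a by 1.43 ± 0.13 (adjusted p = 2.83e-06) and Gsk3b by 0.72 ± 0.13 (adjusted p = 0.000646), and for each the knockout libraries lay below the unmodified ones. Transcripts of both remained, and gene-level counts do not show whether or where either gene was altered.

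The beta-catenin transcript itself did not pass. Ctnnb1 (ENSMUSG00000006932.17, chromosome 9, 120929216 to 120960507) stood at 849 and 836 CPM in the knockout and 789 and 772 CPM in unmodified cells (0.11 ± 0.09, adjusted p = 0.345), and RNA does not measure the protein that GSK3 controls. Of 11 destruction complex genes 2 rose and 4 fell, against 20.4% and 23.6% of all genes. The GSK3 genes themselves are 2 of the fallers. The risers were Csnk1e, a casein kinase, by 0.58, and Btrc, the ubiquitin ligase subunit that recognises phosphorylated beta-catenin, by 0.65. Apc2, a relative of Apc, went from 8.73 and 7.79 CPM in unmodified cells to 1.24 and 0.668 CPM in the knockout. The fourth faller, Apc, lost its call without unmodified replicate 1 (-0.29, adjusted p = 0.365) or either knockout library. Axin1, the core scaffold, had 0.25 ± 0.12 (adjusted p = 0.106).

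Of 17 Wnt target genes tested 4 rose and 5 fell, shares near the 20.4% and 23.6% of all genes, and the median was -0.48. The members moved by unequal amounts in both directions. Axin2, the feedback scaffold most used as a reporter of beta-catenin activity, stood at 122 and 101 CPM in the knockout and 50.6 and 25.9 CPM in unmodified cells, and rose by 1.54 ± 0.26. Cdx1, a homeobox gene of the posterior embryo, stood at 141 and 136 CPM against 1.65 and 1.21 CPM, a rise of 6.58 ± 0.34. Notum, a secreted enzyme that inactivates Wnt proteins, stood at 27 and 19.6 CPM against 2.91 and 1.98 CPM. All 3 were separated between groups, Cdx1 by the widest margin, with no library in between. The fourth riser, Apcdd1, an inhibitor of Wnt signalling at the membrane, lost its call without unmodified replicate 2 (0.47, adjusted p = 0.167) or either knockout library.

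Other targets were lower in the knockout. Wnt3, a ligand gene, had 46.2 and 21.7 CPM in unmodified cells and 0 and 0.111 CPM, 2 counts in all, in the knockout. The ratio of unmodified to knockout cells was 814 (95% interval 225 to 6730), an interval that covers counting error only. Sp5, a zinc finger factor induced by Wnt, stood at 25 and 21.4 CPM against 83.1 and 42.2 CPM and fell by 1.43 ± 0.29. Lgr5, the R-spondin receptor, was low in both groups, at 0.172 and 0.0557 CPM against 2.17 and 1.74 CPM. Ccnd1, which encodes cyclin D1, stood at 43.3 and 49.8 CPM against 122 and 89.8 CPM. Kremen1, a Wnt coreceptor antagonist, fell by 0.75. Among those that did not pass were the ubiquitin ligases Znrf3 (0.14 ± 0.16) and Rnf43 (0.30 ± 0.50).

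Among the DNA-binding partners of beta-catenin, Tcf7l1, the repressor of naive genes, was lower. It stood at 40.1 and 40.8 CPM in the knockout and 126 and 162 CPM in unmodified cells, a fall of 1.83 ± 0.15 (adjusted p = 9.46e-07). Tcf7, an activator that is itself a Wnt target, rose by 0.53 ± 0.10, from 37.7 and 38.4 to 56 and 53.5 CPM. Lef1 stood at 32.2 and 30.5 CPM in the knockout and 75.8 and 52.5 CPM in unmodified cells, and fell by 1.03 ± 0.28. Its call was lost without unmodified replicate 1 (-0.74, adjusted p = 0.0853), without knockout replicate 2 (-0.99, adjusted p = 0.0621) and with DESeq2. The coactivator Bcl9l fell by 1.43 and the corepressor Tle3 by 0.73. Over the 10 factors and coregulators tested, 2 rose and 4 fell, against 20.4% and 23.6% of all genes. The other riser, Pygo2, lost its call without any 1 of the 4 libraries.

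TCF and LEF factors bind DNA words with the core CTTTGA, which was searched on both strands and reads TCAAAG on the opposite one. Of 21 genes of the destruction complex, TCF and target lists that passed, 12 had a promoter in the RefSeq-derived table of GRCm38.p6, and in 4 the 250 bases before the start held this word. The word was in 13.8% of all 32851 such windows and 15.8% of 27025 genes. The 4 genes, Gsk3a, Gsk3b, Lef1 and Sp5, were all lower in the knockout, and each list they come from had more falls than rises. Lef1 and Sp5 each held 2 matches. A link between the word and direction was not tested. The windows of Lef1 and Sp5 are shown 5′ to 3′ because both genes encode parts of the Wnt response and fell where Axin2 rose, and capitals mark the matches. The Sp5 window is chr2:70474673-70474922 and the Lef1 window chr3:131156044-131156293, both on the plus strand.
Sp5: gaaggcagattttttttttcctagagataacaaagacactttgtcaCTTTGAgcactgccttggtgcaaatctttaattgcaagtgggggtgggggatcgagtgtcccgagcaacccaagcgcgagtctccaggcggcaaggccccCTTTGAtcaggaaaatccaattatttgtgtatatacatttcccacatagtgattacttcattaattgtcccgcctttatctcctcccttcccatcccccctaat
Lef1: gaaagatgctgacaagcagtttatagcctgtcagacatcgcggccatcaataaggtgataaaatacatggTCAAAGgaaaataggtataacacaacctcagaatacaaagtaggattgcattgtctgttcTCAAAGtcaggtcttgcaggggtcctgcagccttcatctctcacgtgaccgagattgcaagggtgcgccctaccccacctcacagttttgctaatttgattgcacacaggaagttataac
A match is a description of the letters and not a bound site.

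Naive pluripotency genes mostly rose. Of 16 tested, 13 rose and 1 fell, against 20.4% and 23.6% of all genes, with a median of 2.73. Nanog, at the centre of the naive network (ENSMUSG00000012396.12, chromosome 6, 122707489 to 122714633), stood at 357 and 344 CPM in the knockout and 44.3 and 59.6 CPM in unmodified cells, and rose by 2.76 ± 0.15 (adjusted p = 5e-08). Esrrb, the nuclear receptor that is a chief target of Tcf7l1 repression, stood at 627 and 634 CPM against 47.4 and 72.4 CPM. Both genes were far apart between groups, with replicates close to each other in the knockout.

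Tbx3, a T-box factor of the naive state, had the highest fold change among the naive genes, 268 and 266 CPM against 15.9 and 13.5 CPM, a rise of 4.18 ± 0.13. Nr0b1, an orphan nuclear receptor, rose by 3.85 ± 0.29, from 2.39 and 5.18 to 49.4 and 58.6 CPM. Nr5a2, a nuclear receptor that sustains Oct4, rose by 3.24 ± 0.19, from 4.43 and 4.6 to 40.9 and 44.6 CPM. Tfcp2l1, a factor downstream of LIF and beta-catenin, rose by 3.20 ± 0.18. The Krüppel-like factors rose unequally, Klf4 by 2.87, Klf2 by 1.60 and Klf5 by 0.70. Zfp42, also called Rex1 and used as a marker of the naive state, rose by 2.38, and Gbx2, a homeobox target of LIF, by 2.64. Prdm14, which represses differentiation genes, rose by 3.04 from 0.13 and 0.242 to 1.34 and 1.84 CPM, values near the level of 3 counts in the unmodified libraries.

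The exception was Dppa3, a maternal factor that protects DNA from demethylation. It had 11.7 and 21.6 CPM in unmodified cells and 0.137 and 0.0557 CPM in the knockout, a fall of 7.23 ± 0.64. With DMSO the levels were 10.9 and 19.3 and 0.0508 and 0.503 CPM, also without overlap. Fgf4, the growth factor that starts differentiation, overlapped between groups, at 17.6 and 18.2 CPM against 17.7 and 25.1 CPM. Fbxo15 did not pass (0.53 ± 0.26, adjusted p = 0.124).

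**Figure D2:**
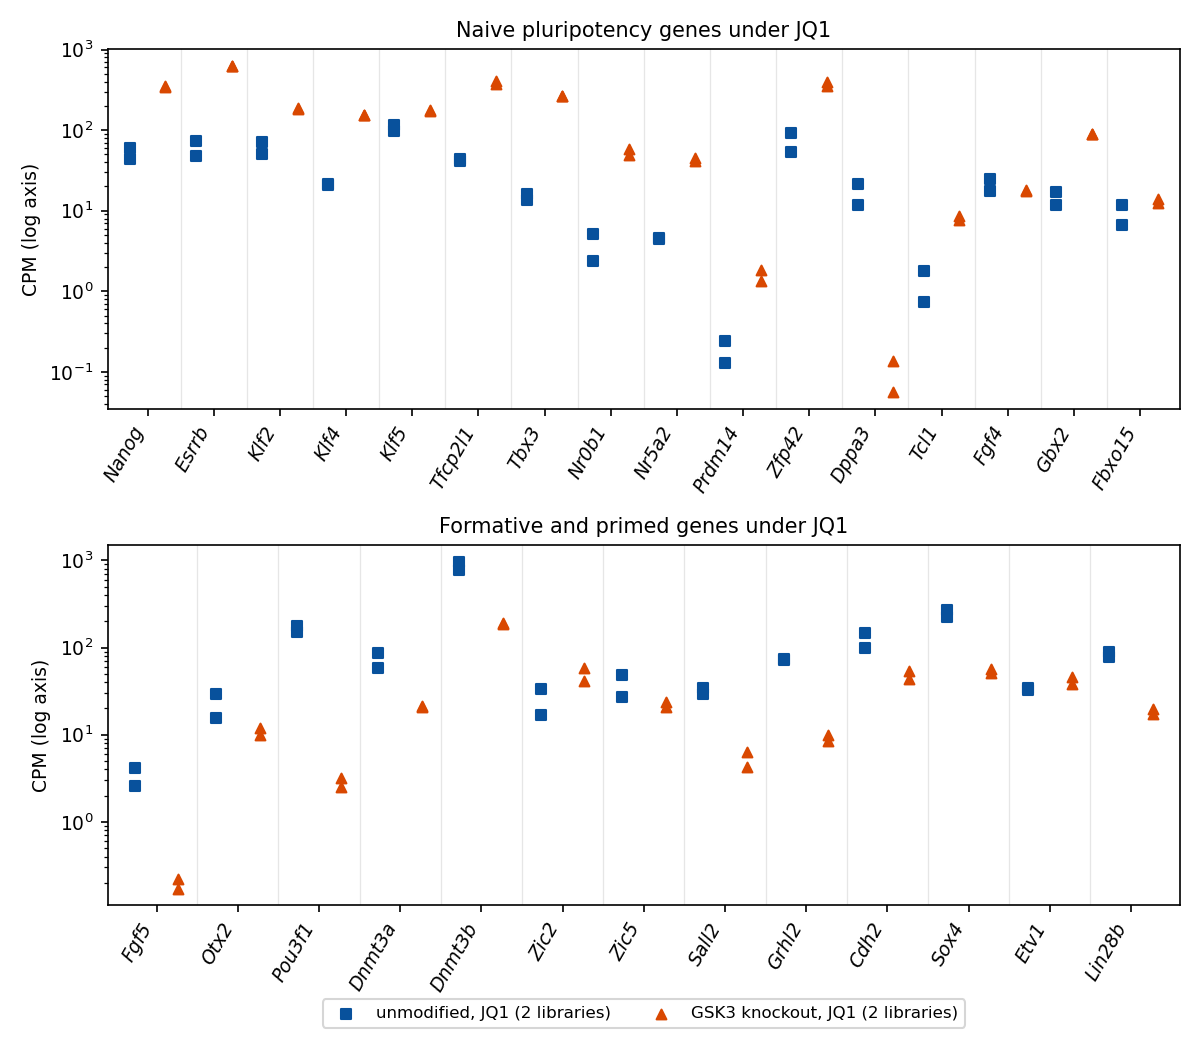
CPM (log axis) of naive pluripotency genes and of formative and primed genes in the 2 unmodified and 2 GSK3 knockout libraries under JQ1, 1 point per library. In the upper panel the knockout lies above in 13 genes that passed and below in Dppa3; in the lower panel it lies below in 11 genes that passed and above in 1 that passed, Zic2.

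General pluripotency genes split. Sox2 stood at 534 and 646 CPM in the knockout and 163 and 271 CPM in unmodified cells and rose by 1.44 ± 0.23, and Pou5f1, which encodes Oct4, rose by 0.69 ± 0.17. Lin28a, an RNA-binding protein that blocks let-7 maturation, fell by 2.10 ± 0.20, from 411 and 406 to 96.5 and 94.5 CPM. Foxd3, a forkhead repressor needed on leaving the naive state, went from 7.12 and 14 to 1.24 and 1.39 CPM, and the Nodal coreceptor Tdgf1 fell by 1.09. Of 10 genes 4 rose and 4 fell, against 20.4% and 23.6% of all genes. The risers were 2 without unmodified replicate 1 or either knockout library, where Dppa4 and Zfp281 lost their calls. Among the fallers, Sall4 lost its call without unmodified replicate 2 (-0.27, adjusted p = 0.058) or either knockout library.

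Genes of the formative and primed states, which cells enter on leaving naive pluripotency, fell. Of 13 tested 11 fell and 1 rose, against 23.6% and 20.4% of all genes, with a median of -2.18. Pou3f1, also called Oct6, stood at 2.51 and 3.17 CPM in the knockout and 150.5 and 176 CPM in unmodified cells, a fall of 5.87 ± 0.20 (adjusted p = 1.28e-09). Fgf5, a marker of the postimplantation epiblast, went from 2.61 and 4.16 to 0.172 and 0.223 CPM, where the knockout holds only a few counts. Neither gene overlapped between groups. Dnmt3b, a de novo DNA methyltransferase, stood at 192 and 186 CPM against 780.4 and 964 CPM, and Dnmt3a fell by 1.80. Grhl2, a factor that opens epithelial enhancers in the formative state, fell by 2.99 ± 0.15. Sox4 fell by 2.18, the zinc finger gene Sall2 by 2.57 and the N-cadherin gene Cdh2 by 1.32. Otx2, an organiser of the formative enhancer set, fell by 1.06 ± 0.30, a call that was lost without unmodified replicate 2 (-0.56, adjusted p = 0.138) or knockout replicate 1 (-0.93, adjusted p = 0.0887). The riser Zic2 lost its call without unmodified replicate 1 (0.56, adjusted p = 0.153) or knockout replicate 1 (0.71, adjusted p = 0.143), and Zic5, among the fallers, lost its call without unmodified replicate 2 (-0.32, adjusted p = 0.276) or either knockout library.

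Among genes of DNA methylation and hydroxymethylation, Uhrf1, which guides maintenance methylation, rose by 0.72, and Dnmt1 overlapped between groups (-0.09 ± 0.12). The dioxygenase genes moved apart. Tet2 rose by 1.02 ± 0.24, from 23.2 and 15.1 to 38.2 and 39.6 CPM, and Tet3 fell by 1.36 ± 0.21, from 48.7 and 30.4 to 14.6 and 16.4 CPM. Tet1 fell by 0.91 ± 0.22, a call that was lost without knockout replicate 1 (-0.76, adjusted p = 0.0582). Of 6 genes 2 rose and 2 fell, against 20.4% and 23.6% of all genes.

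Of the Myc family Mycn, the main paralog of early embryos, fell by 2.98 ± 0.17, from 155 and 210.3 to 24.9 and 21.4 CPM. Myc itself stood at 55.5 and 71.1 CPM against 95 and 96.6 CPM, a fall of 0.60 ± 0.14 that was lost without knockout replicate 1 (-0.43, adjusted p = 0.0629). The Myc antagonists Mxi1 and Mxd4 went opposite ways, by 1.17 and -1.79. Of 10 genes 2 rose and 3 fell, near the 20.4% and 23.6% of all genes. The call of the other riser, Mycl, was also lost without knockout replicate 1 (0.52).

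In the Nodal pathway, which patterns the epiblast, the ligand and the secreted Lefty inhibitors were lower. Nodal, the ligand, stood at 14.5 and 11.5 CPM in the knockout and 42.5 and 33.5 CPM in unmodified cells, a fall of 1.54 ± 0.18. Lefty1, a secreted inhibitor and target of the pathway, went from 11.9 and 13.4 to 0.172 and 0.223 CPM and Lefty2 from 8.6 and 10.8 to 0.206 and 1.06 CPM. The knockout values of Lefty1 are a few counts, and its fold change is known only roughly. The mediator Smad3 fell by 1.17, whereas the receptor Acvr1b rose by 0.81 and the inhibitory Smad7 by 0.93. Of 11 genes 2 rose and 5 fell, against 20.4% and 23.6% of all genes.

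Mesendoderm genes were low and mixed in direction. Of 11 tested 3 rose and 4 fell, against 20.4% and 23.6% of all genes. The median was -0.62 and became -0.12 with Mesp1, at or under 3 counts in all 4 libraries, left out. The sign of this median was not steady: it ran from -0.96 without knockout replicate 1 to 0 without unmodified replicate 1, and was 0.51 over the genes with at least 1 CPM in 4 libraries. Mixl1, an early mesendoderm factor, fell by 2.02 ± 0.29 and Fgf8, a gastrulation signal, by 3.13 ± 0.29. Foxa2 and Hhex, factors of the endoderm, rose by 2.53 and 1.18, at 1.3 and 1.95 CPM against 0.304 and 0.242 CPM for Foxa2. Eomes, the other riser, lost its call without unmodified replicate 1 (0.66, adjusted p = 0.0692) or either knockout library, and Evx1, among the fallers, without unmodified replicate 1 (-1.06, adjusted p = 0.14) or knockout replicate 2.

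Primitive endoderm genes moved both ways. The lineage factors Gata6, Gata4, Sox17 and Sox7 rose, Gata6 by 4.16 ± 0.34 from 0.782 and 0.532 to 13.6 and 10.1 CPM. Sox17 had 7.25 and 5.79 CPM in the knockout and 0.304 and 0.0484 CPM in unmodified cells. Hnf4a, a nuclear receptor of endoderm, had no counts in unmodified cells and 1.34 and 0.947 CPM in the knockout, at least 8.3-fold higher when 3 counts per library are taken as the floor. The receptor Pdgfra rose by 2.95 and the laminin chain Lama1 by 3.71 ± 0.25, from 19.4 and 16.9 to 258 and 216 CPM. The basement membrane genes Lamb1 and Sparc went the other way, by -2.09 and -1.57. Of 16 tested 8 rose and 6 fell, against 20.4% and 23.6% of all genes. Among the fallers, Lamc1, Col4a1 and Col4a2 lost their calls without unmodified replicate 1 or knockout replicate 2. A set of 6 primitive endoderm markers summed to 60.23 and 44.16 CPM in the knockout and to 34.36 and 22.36 CPM in unmodified cells. Whether these transcripts came from a few differentiated cells or from all cells was not tested.

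The keratins fell by wide margins. Krt8 stood at 2.99 and 2.34 CPM in the knockout and 771 and 387 CPM in unmodified cells, a fall of 7.74 ± 0.45 (adjusted p = 6.95e-08). Its partner Krt18, with which it forms the filaments of simple epithelia, went from 509.8 and 259.9 to 2.64 and 3.12 CPM, and Krt19 from 154 and 89.6 to 1.79 and 1.39 CPM. In each of the 3, unmodified replicate 1 was above replicate 2 and both were far above the knockout. They stand in a trophoblast list of 11, of which 7 fell and 1 rose, against 23.6% and 20.4% of all genes. The factors that specify trophoblast did not share one direction. Cdx2 had 0.82 ± 0.35 (adjusted p = 0.0718), and Gata3 fell from 9.43 and 5.08 to 0.275 and 0.223 CPM. The riser Tfap2c lost its call without unmodified replicate 1 (0.60, adjusted p = 0.115) or knockout replicate 1 (0.71, adjusted p = 0.0731). The number of rises was 0 without that knockout library and 2 without either unmodified DMSO library. A set of 5 trophoblast markers overlapped between groups, summing to 46.49 and 34.19 CPM in the knockout and to 50.61 and 25.41 CPM in unmodified cells, with Elf5 and Hand1 at 0 in knockout replicate 2.

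A list of adhesion genes, which holds epithelial and mesenchymal members together, had 11 of 14 lower and 2 higher, against 23.6% and 20.4% of all genes, with a median of -1.70. Cldn6, a tight junction claudin of pluripotent cells, stood at 27.7 and 26 CPM in the knockout and 544 and 535 CPM in unmodified cells, a fall of 4.33 ± 0.14. Cldn7 went from 71.4 and 72.9 to 1.54 and 1.56 CPM, and Esrp1, an epithelial splicing regulator, from 95.6 and 100.4 to 1.17 and 1.28 CPM. All 3 were separated by more than 10-fold, with replicates close together in both groups.

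Cdh1, which encodes E-cadherin, a protein that binds beta-catenin at cell junctions, fell by 1.70 ± 0.14, from 1519 and 1145 to 427 and 392 CPM. Epcam, an epithelial adhesion molecule, fell by 1.70 ± 0.11, and the hyaluronan receptor Cd44 by 2.06. Markers of the opposite, mesenchymal character were not uniform. Vim, the intermediate filament vimentin, fell by 1.53 and the repressor Zeb2 by 3.74, whereas Zeb1 rose by 1.57 ± 0.15, from 8.64 and 6.83 to 23.6 and 22.4 CPM. Snai1, the other riser, lost its call without unmodified replicate 2 (0.82, adjusted p = 0.0802) or knockout replicate 1 (1.00, adjusted p = 0.059).

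**Figure D3:**
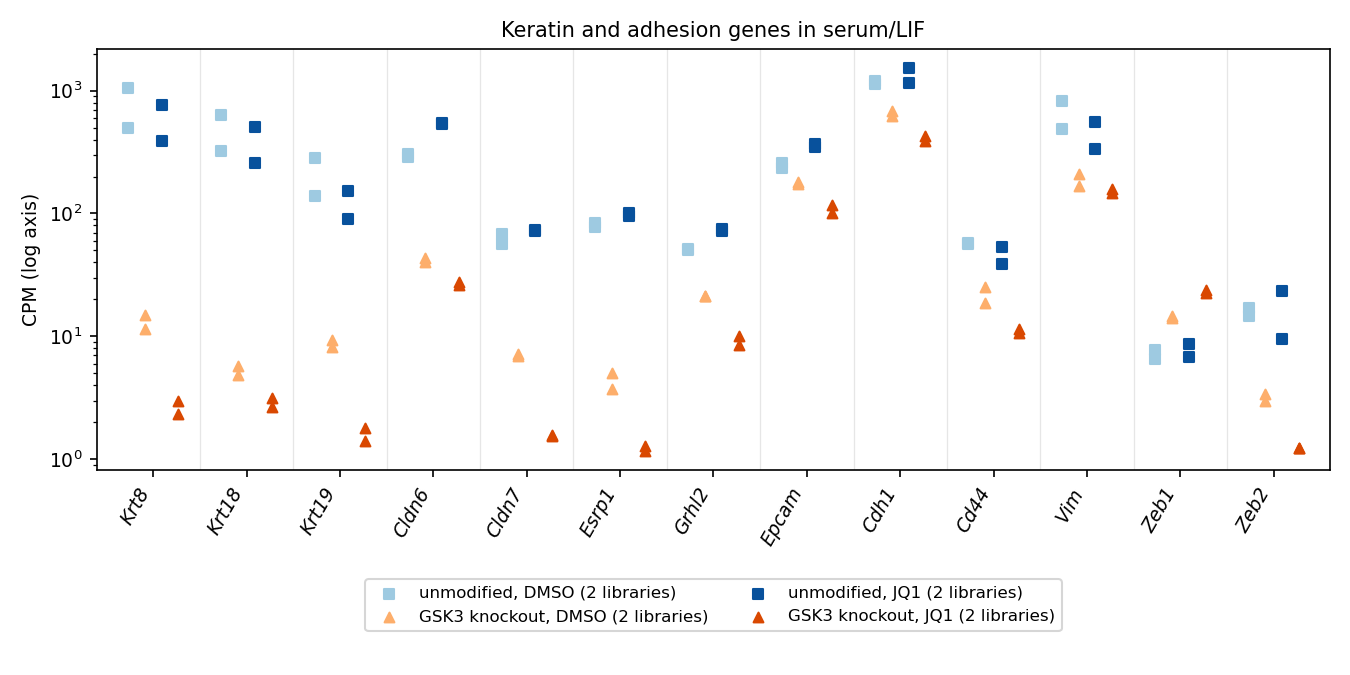
CPM (log axis) of keratin, epithelial and mesenchymal genes in the 8 serum/LIF libraries, 1 point per library, squares for unmodified and triangles for GSK3 knockout cells. Both knockout libraries lie below both unmodified ones with each agent for every gene drawn except Zeb1, which lies above; Krt8 is at 771 and 387 CPM in unmodified and 2.99 and 2.34 CPM in knockout cells under JQ1.

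Fibroblast genes also fell, 11 of 13 tested with 0 rising, against 23.6% and 20.4% of all genes, and the median was -1.30. Rises were likewise 0 at an unadjusted p under 0.05 and 0 with DESeq2. The muscle-type cytoskeletal genes Tagln and Acta2 fell, Tagln from 884 and 555 to 30.5 and 21.8 CPM and Acta2 by 3.20 ± 0.27. The collagen Col5a1 fell by 2.21 and Fbn1, a microfibril protein, by 2.10. Fn1, the fibronectin gene, overlapped between groups (0.15 ± 0.18). Without knockout replicate 2 the falls numbered 6, and without unmodified replicate 1 there was 1 rise. The summed fibroblast markers given above were lower in the knockout, and their part in these results was not tested. Among mesenchymal and matrix genes of other lists, Vim, Zeb2 and Sparc were lower and Zeb1, Snai1 and Lama1 higher, the call of Snai1 not being steady. No conclusion on that part is drawn from these few genes.

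Neural genes were mostly lower, 5 of 8 tested, with 1 higher, against 23.6% and 20.4% of all genes. Nes, which encodes the progenitor filament nestin, stood at 15.5 and 17 CPM in the knockout and 398 and 234 CPM in unmodified cells, a fall of 4.28 ± 0.34. Tubb3, a neuronal tubulin, fell by 2.29 and the neural SOX genes Sox11 and Sox3 by 1.22 and 1.22. Sox21, a SOX repressor that is also active in the early embryo, did the reverse. It stood at 30.5 and 27.3 CPM in the knockout and 1.35 and 2.23 CPM in unmodified cells, a rise of 4.03 ± 0.23.

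Germline and two-cell-like genes gave little. Of 12 germline genes 2 rose and 3 fell, near the 20.4% and 23.6% of all genes. Stk31, at 5.22 and 6.46 CPM against 1.48 and 2.52 CPM, had the largest rise. Of 5 two-cell-like genes tested 0 passed, against 44% of all genes (0 at an unadjusted p under 0.05, and 0 with DESeq2). Zscan4c, the marker of the rare two-cell-like state, had no counts in any of the 4 JQ1 libraries, and the other 4 genes had at most 5 counts in either group. With DMSO all 5 were lower in the knockout, against 21% of all genes, Zscan4c at 0.254 and 0.615 CPM against 7.88 and 4.09 CPM. Because the Zscan4 family consists of near-identical copies, how reads were shared among them is uncertain, as it is for H2-K1 with H2-D1 and for Gbp2 with Gbp2b below.

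Of 11 genes of the LIF and STAT3 list 7 fell and 1 rose, against 23.6% and 20.4% of all genes. Jak1 and Jak2, the kinases of the receptor, fell by 0.71 and 1.36, and Stat3, the transcription factor they activate, by 0.56 ± 0.11. The targets Junb, Pim1 and Pim3 fell as well. Junb went from 97.7 and 85.7 to 6.87 and 6.07 CPM and Pim1, a survival kinase, from 184 and 165 to 55 and 53.1 CPM. Socs3, the feedback inhibitor and also a Stat3 target, rose by 1.14 ± 0.13, from 22.9 and 25.6 to 53 and 54.1 CPM. The receptor chains Lifr and Il6st did not pass (0.34 ± 0.16 and -0.34 ± 0.20).

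In the BMP pathway the ligand Bmp4 rose by 1.70 ± 0.13, from 54 and 45.5 to 155 and 168 CPM, while the inhibitor of differentiation genes that it induces went apart. Id1 fell by 3.08 ± 0.19, from 150.3 and 146 to 20.5 and 14.4 CPM, and Id2 by 3.54 ± 0.26. Id4 rose by 2.52 ± 0.21, from 4 and 5.37 to 27.2 and 26.3 CPM. Of 11 genes 2 rose and 5 fell, against 20.4% and 23.6% of all genes. Among the fallers, Bambi and Bmpr1a or Id3 lost their calls without unmodified replicate 1 or either knockout library.

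The other arm blocked in 2i is MEK and ERK signalling. Of 15 targets of that arm 5 rose and 8 fell, against 20.4% and 23.6% of all genes. The phosphatase genes Dusp4, Dusp5 and Dusp6, which shut ERK off, fell by 2.33, 2.57 and 1.29. The immediate early genes Egr1 and Fos fell too, Egr1 from 67.5 and 71.2 to 13 and 22.4 CPM. The ETS factor Etv4 rose by 2.53 ± 0.15, from 25 and 31.3 to 148 and 177 CPM, Etv5 by 0.58 and the inhibitor Spry4 by 1.03.

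Of 10 interferon and antigen presentation genes tested 9 fell, against 23.6% of all genes. H2-K1 and H2-D1, the classical class I antigen presenters, stood at 21.6 and 25.2 CPM against 150.5 and 139 CPM and at 19.7 and 20.8 CPM against 85.1 and 79.3 CPM. B2m, their shared light chain, fell by 1.21 ± 0.19. The interferon regulator Irf1 fell by 1.50 and the membrane protein Ifitm3 by 3.60 ± 0.19. The tenth gene, Ifit1, had 3 counts or fewer in each group, and without it the median was -2.02. Isg15 lost its call without knockout replicate 1 (-3.06, adjusted p = 0.0515) and Tap1 without knockout replicate 2 (-0.80, adjusted p = 0.0543).

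Cholesterol synthesis genes fell modestly and together under JQ1. Of 17 tested 12 fell and 0 rose, against 23.6% and 20.4% of all genes, with a median of -0.49. Rises were also 0 at an unadjusted p under 0.05 and 0 with DESeq2. Srebf2, the master activator of the pathway, stood at 210.5 and 185 CPM in the knockout and 386 and 328 CPM in unmodified cells, a fall of 0.85 ± 0.11. Dhcr7, the enzyme of the last step, stood at 47 and 40.2 CPM against 84.7 and 79 CPM, and Idi1, an isoprenoid isomerase, fell by 0.80. In all 3 the groups were separate, with smaller gaps than in the keratins. Without knockout replicate 2 the count of falls was 7, and Hmgcs1, Sqle, Fdps and Lss were among the genes that lost their calls there. Hmgcs1 and Sqle also lost theirs without unmodified replicate 1.

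With DMSO the same list did not fall. There 3 genes were higher and 1 lower in the knockout, against 18.9% and 21% of all genes, and the median was 0.01. The knockout effect differed between JQ1 and DMSO in 8 of the 17, each more negative under JQ1, against 3.12% of all genes with a more negative and 1.25% with a more positive effect. Dhcr7 had -0.91 ± 0.12 under JQ1 and 0.12 ± 0.12 with DMSO, a difference of -1.02 ± 0.17 (adjusted p = 0.00559). For Srebf2 the difference was -0.96 ± 0.16 and for the sterol oxidase Msmo1 -0.93 ± 0.15. These 3 differences held in all leave-one-out fits. With 1 library left out the number of differing genes ran from 3 to 12. The levels of all 4 groups show where the difference lies, for Srebf2 at 275 and 281 CPM in unmodified and 318 and 281 CPM in knockout cells with DMSO.

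**Figure D4:**
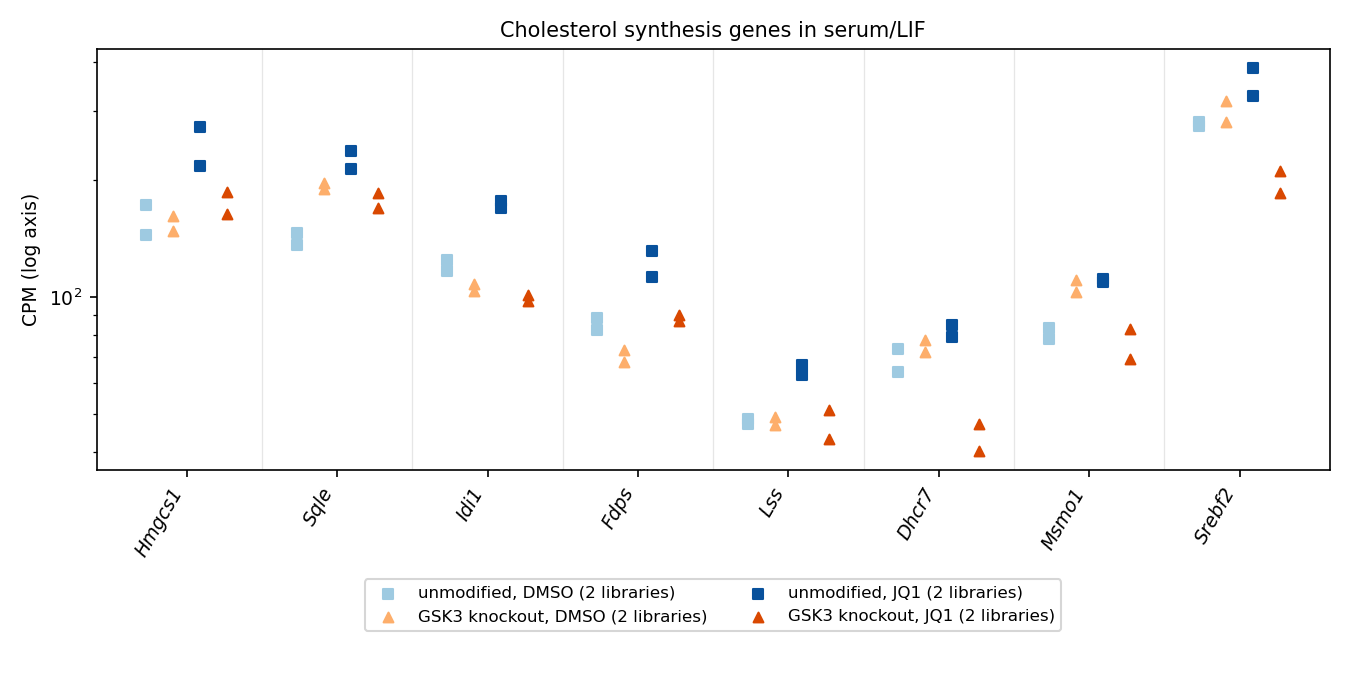
CPM (log axis) of the cholesterol synthesis genes named in the text, in the 8 serum/LIF libraries, 1 point per library, squares for unmodified and triangles for GSK3 knockout cells, light for DMSO and dark for JQ1. For Dhcr7 the knockout lies at 47 and 40.2 CPM under JQ1, below unmodified cells at 84.7 and 79 CPM, whereas with DMSO the groups overlap.

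Among glycolysis genes more rose than fell under JQ1. Of 17 genes 9 rose and 1 fell, against 20.4% and 23.6% of all genes, with a median of 0.33. With DMSO 3 were higher and 3 lower. Differences between the 2 knockout effects were called in 0 of the 17 (4 with DESeq2), against 4.37% of all genes. Gpi1, the isomerase of the second step, stood at 718 and 734 CPM in the knockout and 343 and 395 CPM in unmodified cells, a rise of 0.98 ± 0.10. Pdk1, which keeps pyruvate out of the mitochondrion, rose by 1.40 ± 0.23, and the phosphofructokinase Pfkp by 0.96. The faller was Slc2a1, the ubiquitous glucose transporter, by 1.07 ± 0.18, from 1374 and 845 to 529 and 529 CPM. Of the 9 risers, Pgam1 lost its call without unmodified replicate 1 or either knockout library, Pfkm without unmodified replicate 1 (0.36, adjusted p = 0.0705), and Slc2a3 without unmodified replicate 2 (0.35, adjusted p = 0.1) or knockout replicate 1. The glycogen list holds Gys1, which encodes glycogen synthase, the enzyme from which GSK3 takes its name and which it inhibits. Gys1 rose by 0.55 ± 0.12, from 23.1 and 26.1 to 36.6 and 35.7 CPM, while the branching enzyme Gbe1 fell by 0.98 and glycogenin, Gyg, by 1.34. Of 11 glycogen genes 3 rose and 3 fell, near the 20.4% and 23.6% of all genes.

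Of 17 cell cycle genes 6 rose and 4 fell, against 20.4% and 23.6% of all genes. The risers included the replication genes Mcm5, up by 0.80, Pcna by 0.62 and Mcm2 by 0.52. Mki67, which encodes the proliferation antigen Ki-67, fell by 1.32 ± 0.24, from 651 and 392 to 219.9 and 198 CPM, and cyclin D2, Ccnd2, by 0.93. Of 14 ribosome biogenesis genes 5 rose and 1 fell, against the same shares of all genes. The rises were fewer without unmodified replicate 1 or either knockout library. The helicase gene Ddx21 was the faller, by 1.19 ± 0.10, and the snoRNP gene Dkc1 rose by 0.89 ± 0.11. Of 14 p53 targets 4 rose and 3 fell, near the 20.4% and 23.6% of all genes. Perp, a desmosome-associated membrane protein, was lower by 3.25 ± 0.28 and Pmaip1, the death factor Noxa, higher by 1.57 ± 0.25. The p53 counts were 2 higher without knockout replicate 1 and 1 lower without knockout replicate 2.

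Genes of the BET family, which JQ1 binds, share a list with elongation and Mediator genes. Of these 15 genes 4 rose and 4 fell, near the 20.4% and 23.6% of all genes, with a median of 0.05. Brd2 fell by 0.52 ± 0.10, from 553 and 488 to 362 and 364 CPM. Brd3 had 0.13 ± 0.12 (adjusted p = 0.38), and Hexim1, a gene often used as a marker of BET inhibition, 0.05 ± 0.10 (adjusted p = 0.724). The Mediator subunit Med14 fell by 1.09 and the elongation factor Ell2 by 0.83. The rises were 2 without unmodified replicate 2 or knockout replicate 1.

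Imprinted genes, of which 1 parental copy is normally silent, included the highest rise that the naming rule picked. Plagl1, a zinc finger growth regulator (ENSMUSG00000019817.18, chromosome 10, 13060504 to 13131694), stood at 512 and 519.6 CPM in the knockout and 3.69 and 4.16 CPM in unmodified cells, a rise of 7.04 ± 0.34 (adjusted p = 2.62e-08). Grb10, an adaptor that restrains insulin signalling, did the reverse, at 10.3 and 7.41 CPM against 250.5 and 206 CPM. Phlda2, a growth inhibitor of the placenta, went from 50.9 and 62.1 to 0.824 and 1.45 CPM and the cell cycle inhibitor Cdkn1c from 44.4 and 48.8 to 1.75 and 1.84 CPM. Each of the 4 was separated between groups by more than 10-fold.

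Other imprinted genes fell by less. Peg3 fell by 3.11 ± 0.33, the growth factor Igf2 by 3.00 ± 0.28 and Snrpn by 1.29. Nnat and Zrsr1, both paternally expressed, rose by 1.83 and 1.52. Both lie inside introns of other genes, and whether the counting used strand is not given in the sources used here. Of 18 tested 4 rose and 11 fell, against 20.4% and 23.6% of all genes. H19, the noncoding neighbour of Igf2, overlapped between groups at 8.69 and 2.56 CPM against 5.69 and 3.63 CPM. Fold changes do not show which parental copy was read. Meg3 lost its call without knockout replicate 2 (-0.44, adjusted p = 0.0804).

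Among all genes the naming rule took the 10 highest and 10 lowest fold changes with at least 5 CPM in a group. Beside Plagl1, Cdx1, Hprt and Sox17, the highest were Dmgdh, Arl14epl, Fkbp6, M1ap, Mobp and Fetub. Dmgdh, a mitochondrial dehydrogenase of choline breakdown, had 25.6 and 30.5 CPM in the knockout and 0.304 and 0.339 CPM in unmodified cells. Arl14epl stood at 48.5 and 44.8 CPM against 1.78 and 2.42 CPM, and Fkbp6, a germline immunophilin, at 12.3 and 10.3 CPM against 0.261 and 0.678 CPM. The remaining 3 were at or under 10.5 CPM in the knockout.

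The lowest were at or near no counts in the knockout. Ltb, a cytokine of the TNF family, had 32.4 and 27.4 CPM in unmodified cells and 0 in both knockout libraries, at least 221-fold lower in the knockout. Gbp2b, an interferon-induced GTPase, was at 0 as well (at least 132-fold lower), as were Tmem54 (at least 60.7-fold) and the integrin gene Itgb8 (at least 43.1-fold). Itgb8 had 8.17 and 3.48 CPM in unmodified cells and was not called by DESeq2. Gbp2 had 1 count in the knockout, with a ratio of 1946 (95% interval 349 to 76887). Enpp2, the secreted lipid enzyme autotaxin, had 12.2 and 18.6 CPM in unmodified cells and 1 count in the knockout, and Actc1, cardiac actin, 21.9 and 7.84 CPM and 2 counts. Mmp25, a membrane metalloproteinase, fell by 7.78 ± 0.41.

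The comparison with DMSO shares no library with the one under JQ1, so the 2 knockout effects can be set side by side. With DMSO 6790 genes passed (40%), 3219 higher (18.9%) and 3571 lower (21%). Of the genes higher under JQ1 54.8% were also higher with DMSO, and of those higher with DMSO 58.8% were higher under JQ1. The shares were 64.6% and 72.6% for lower genes. Several list shifts were present with DMSO too. There 14 of 16 naive genes were higher and 1 lower, and 11 of 13 formative and primed genes were lower and 1 higher. In the trophoblast list 8 of 11 were lower and 0 higher, and in the adhesion list 10 of 14 and 1. In the fibroblast list 10 of 13 were lower and 0 higher, and in the interferon and antigen presentation list 10 of 10 and 0. Over all genes the 2 effects had a Pearson correlation of 0.7 and a Spearman correlation of 0.652, given as a description, since genes are not independent replicates.

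A test of the difference between the 2 effects called 742 genes (4.37%), 212 more positive under JQ1 and 530 more negative. This count is the least steady of the 3. It was 1350 with DESeq2 (540 positive and 810 negative), and ran from 212 without knockout JQ1 replicate 1 to 1779 without unmodified JQ1 replicate 2. Genes that passed in opposite directions were few. In 62 genes the knockout was lower under JQ1 and higher with DMSO, and in 27 the reverse, with ranges over the alternatives of 26 to 127 and 11 to 44.

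**Figure D5:**
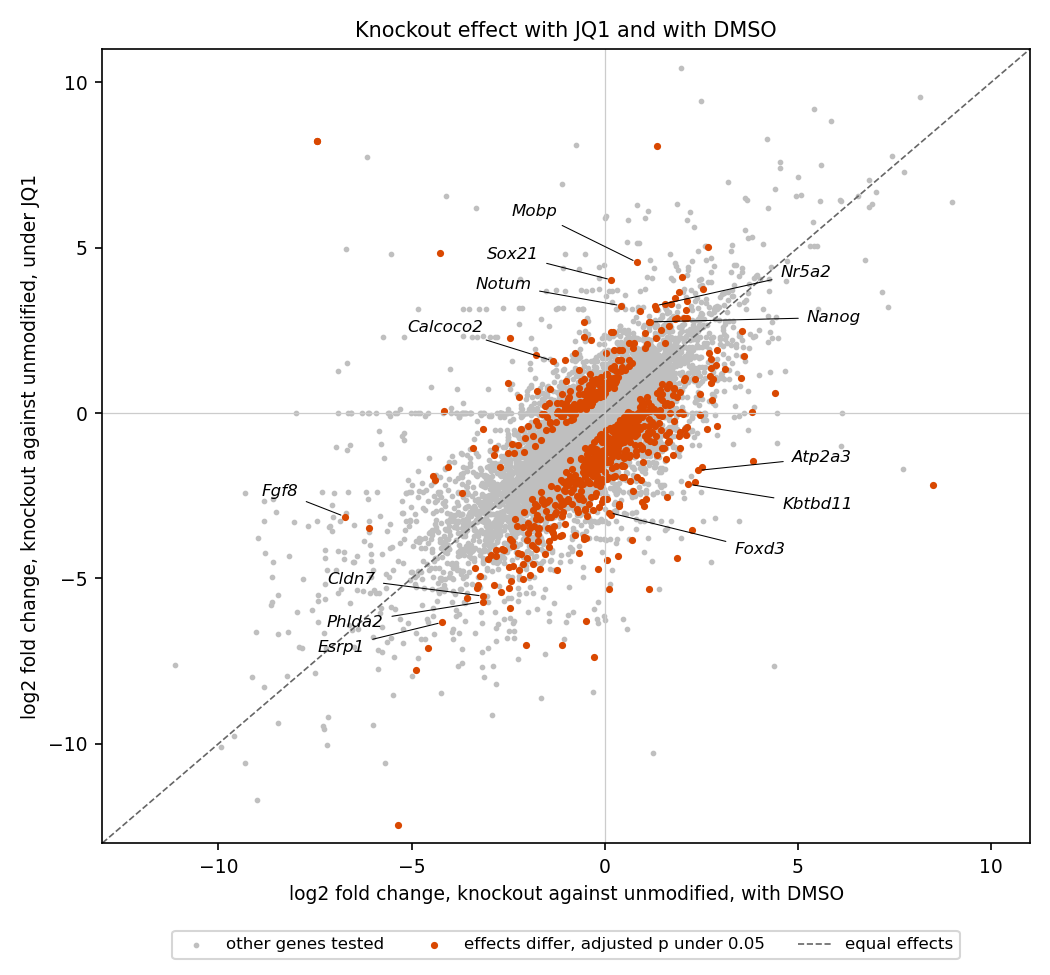
Log2 fold change of GSK3 knockout over unmodified cells with DMSO (x axis) and under JQ1 (y axis) for 16987 genes; the dashed line marks equal effects, and rows of points at 0 are genes without counts in 1 pair of groups. Filled dark points are the 742 genes whose effects differed, among them Nanog and Sox21 above the line and Atp2a3 and Esrp1 below it.

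Naive genes were among those with a more positive effect under JQ1. Nanog rose by 2.76 under JQ1 and by 1.18 with DMSO, a difference of 1.58 ± 0.20 (adjusted p = 0.00149). Its level in the knockout was 339.7 and 372 CPM with DMSO and 357 and 344 CPM with JQ1, close to each other, while unmodified cells had 140.1 and 174 CPM with DMSO and 44.3 and 59.6 CPM with JQ1. Nr5a2 had a difference of 1.94 ± 0.25, with 27.1 and 41.5 CPM in unmodified and 85 and 83.6 CPM in knockout cells with DMSO. For Nanog the agents differ mainly in the unmodified libraries, whereas the Nr5a2 values with JQ1 are below those with DMSO in both genotypes. The list had 4 positive and 1 negative difference out of 16, against 1.25% and 3.12% of all genes. The positive ones numbered 2 to 9 with 1 library left out, 9 with DESeq2 or no low-count filter and 8 with the replicate block. Klf2, Klf4 and Klf5, with 0.97, 0.99 and -0.72, each lost their call in at least 4 of those fits. Tbx3 and Tfcp2l1 did not differ by the test (0.25 ± 0.16 and 0.33 ± 0.23).

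Among Wnt targets Notum had one of the clearest differences, 2.82 ± 0.33. Its levels with DMSO were 39.2 and 42.9 CPM in the knockout and 24.1 and 37.6 CPM in unmodified cells, so the low values are those of unmodified cells under JQ1. Sp8, a relative of Sp5, differed by 2.68 ± 0.45, with 1.02 and 0.838 CPM in the knockout and 9.9 and 6.55 CPM in unmodified cells under DMSO. Axin2 had a difference of -0.11 ± 0.36 (adjusted p = 0.898) and Cdx1 one of 1.51 ± 0.45 (adjusted p = 0.0756), so neither passed.

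The highest differences picked by the naming rule were those of Sox21, Mobp, Fgf8, Gad1 and Calcoco2. Sox21 stood at 1.47 and 1.73 CPM in the knockout and 1.26 and 1.69 CPM in unmodified cells with DMSO, against 30.5 and 27.3 CPM in the knockout under JQ1, and its difference was 3.85 ± 0.37 (adjusted p = 0.000388). It was high in 1 of the 4 groups. Mobp, a myelin protein gene, differed by 3.73 ± 0.44 and Calcoco2, an autophagy receptor, by 2.93 ± 0.43. Fgf8 differed by 3.60 ± 0.49, being lower in the knockout with both agents. It had 0.356 and 0.224 CPM in the knockout against 35.8 and 27.1 CPM in unmodified cells with DMSO. Under JQ1 the levels were 0.515 and 0.835 CPM against 5.91 and 5.52 CPM. The larger shift between agents was in unmodified cells, and the knockout stayed under 1 CPM. Gad1, which makes the transmitter GABA, had fewer than 1 CPM in all JQ1 libraries. Its difference of 3.28 was lost without any JQ1 library other than unmodified replicate 2, and without unmodified replicate 2 or knockout replicate 1 of the DMSO libraries.

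The lowest differences were those of Ltb, Miat, Nphs1, Kbtbd11 and Atp2a3. Atp2a3, a calcium pump of the endoplasmic reticulum, and Kbtbd11 were lower in the knockout under JQ1 and higher with DMSO. Atp2a3 stood at 36.2 and 40.8 CPM in the knockout and 5.95 and 8.8 CPM in unmodified cells with DMSO, and at 1.89 and 1.56 and 6.73 and 4.89 CPM with JQ1, a difference of -4.14 ± 0.34 (adjusted p = 0.000177). Kbtbd11 differed by -4.32 ± 0.34. For both the knockout with DMSO was the high group. Miat, a noncoding RNA, differed by -4.98 ± 0.67, with 3 counts in the knockout under JQ1. The difference of Nphs1 was lost without either knockout JQ1 library, and that of Ltb without unmodified replicate 1 or either knockout library of the JQ1 set or knockout replicate 1 of the DMSO set.

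Of the 14 genes of the mixed adhesion list 6 had a more negative and 1 a more positive effect under JQ1, against 3.12% and 1.25% of all genes. The more positive one was the mesenchymal factor Snai1, a call lost in 7 of the 8 fits that left out 1 library, and the more negative ones numbered 4 to 8 with 1 library left out. Cldn7 differed by -2.39 ± 0.27, Esrp1 by -2.12 ± 0.25, Cldn6 by -1.50 ± 0.17 and Epcam by -1.23 ± 0.15, and Grhl2 of the formative list by -1.73 ± 0.20. Cldn7 had 6.86 and 7.15 CPM in the knockout and 67.5 and 56.1 CPM in unmodified cells with DMSO. The same sign was found for Phlda2 (-2.56 ± 0.35), Grb10 (-1.32 ± 0.20), Foxd3 (-3.12 ± 0.51), H2-K1 (-1.51 ± 0.20) and the Stat3 target Pim1 (-1.21 ± 0.15). Foxd3 overlapped between genotypes with DMSO, at 22.2 and 29.2 CPM in the knockout and 19.5 and 28.4 CPM in unmodified cells. Krt8 (-1.87 ± 0.53, adjusted p = 0.0666) and Krt18 (-0.58 ± 0.52) did not pass, although with DMSO the knockout held 15 and 11.5 CPM of Krt8. Fibroblast genes had 0 called differences of 13, against 4.37% of all genes (5 at an unadjusted p under 0.05, and 2 with DESeq2). Their summed markers were 380.7 and 576.8 CPM in the knockout and 1242 and 1167 CPM in unmodified cells with DMSO.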

How the data were processed

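The mRNA libraries were made from total RNA and sequenced as paired reads, per the labels' protocols. The submitters' processing notes list bcl2fastq, STAR 2.5.2, RSEM and DESeq2 1.18.1 and the build mm10, without settings or strand. The deposited tables hold RSEM expected counts per gene, not normalized, for 52550 identifiers. Symbols and coordinates came from GENCODE M21 (GRCm38), where 99.72% of identifiers matched without version. Expected counts were rounded, and edgeR 4.0.16 in R 4.3.3 (TMM scaling, filterByExpr at a count minimum of 10, total minimum of 15, quasi-likelihood test) was fitted to 12 libraries in 6 groups of 2, with 6 residual degrees of freedom and a common biological coefficient of variation of 0.129. Benjamini-Hochberg adjustment ran over 16987 genes, two-sided, with a threshold of 0.05. The standard error is the fold change divided by the root of the F statistic. CPM use TMM library sizes.

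The tested contrasts were genotype under JQ1, genotype with DMSO, and their difference. Members and gene lists were chosen with earlier results of these data known. Named genes were the list members and genes picked by rank. The latter passed the threshold and had at least 5 CPM in a group and a symbol that is no model name. They were the 10 highest and 10 lowest fold changes without overlap between groups, and the 5 highest and 5 lowest differences, where overlap was allowed. Genes at 0 in a group were bounded at 3 counts per library; ratios at 1 to 3 counts carry exact 95% intervals. Alternatives were RLE scaling, DESeq2 1.42.0, other filters, only the libraries compared, no mitochondrially encoded genes, a fold threshold, a replicate block and leaving out each library. In simulated data with 200 changed genes per run, far fewer than were called in the real data, 4.35% of calls were unchanged genes. Promoter windows came from a RefSeq table of GRCm38.p6, and no genome sequence was used here. Results for some of the genes tested are not reported here.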

Additional observations from a re-analysis of the deposited data

Results flagged for a closer look

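The test of the difference between the knockout effect under JQ1 and that with DMSO called 742 genes, and 55 of the genes named in the text were among them. Each difference below is the log2 fold change under JQ1 minus that with DMSO, by edgeR's quasi-likelihood test with Benjamini-Hochberg adjustment. Ltb had 0 counts in both knockout libraries under JQ1, where its fold is known only as a bound of at least 221. The size printed for its difference is therefore not a measured value. The effect was more positive under JQ1 for Nanog (1.58), Nr5a2 (1.94), Sp8 (2.68), Notum (2.82), Calcoco2 (2.93), Fgf8 (3.60), Mobp (3.73) and Sox21 (3.85), and these calls held in all 8 fits that left out 1 library. It was also more positive, but with a call lost in at least 1 of the 8 fits that left out 1 library, for Tcf7 (0.56), Klf2 (0.97), Klf4 (0.99), Sox11 (1.14), Tfap2c (1.42), Snai1 (1.57), Otx2 (1.79), Mixl1 (2.37) and Gad1 (3.28). The effect was more negative under JQ1 for Miat (-4.98), Kbtbd11 (-4.32), Atp2a3 (-4.14), Foxd3 (-3.12), Phlda2 (-2.56), Cldn7 (-2.39), Esrp1 (-2.12), Grhl2 (-1.73), H2-K1 (-1.51), Cldn6 (-1.50), Grb10 (-1.32), Epcam (-1.23), Pim1 (-1.21), Dhcr7 (-1.02), Srebf2 (-0.96) and Msmo1 (-0.93), and these calls held in all 8 fits that left out 1 library. It was also more negative, but with a call lost in at least 1 of the 8 fits that left out 1 library, for Ltb (-7.10), Nphs1 (-4.68), Mmp25 (-2.90), Egr1 (-1.91), Tet2 (-1.78), Lin28a (-1.40), Junb (-1.38), Id1 (-1.31), Spry4 (-1.30), Tet3 (-1.12), Lamc1 (-1.07), Ccnd1 (-1.02), Tle3 (-1.0), Lamb1 (-1.0), H2-D1 (-0.90), Cdh1 (-0.86), Sqle (-0.80), Pim3 (-0.80), Stat3 (-0.75), Klf5 (-0.72), Idi1 (-0.61) and Brd2 (-0.54).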

How the results depend on the processing

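Of the 223 named genes tested under JQ1, 35 lost their call and 6 gained one in at least 1 alternative. No direction reversed where the gene was called in the main or the alternative fit. Of 55 named genes with a called difference, 31 lost it in at least 1. With a log2 fold change of at least 1 also required, 3660 genes were called under JQ1 and 3491 with DMSO. The count of differences was 1350 with DESeq2 and 2011 with no low-count filter. With 1 library left out, counts ran from 5215 to 7183 under JQ1, from 4512 to 5651 with DMSO and from 212 to 1779 for the differences. Such fits leave a group with 1 library, assumed to vary like the others. The cause of these shifts was not tested. Scaling moved the median of all genes by less than 0.1. With 18952856 to 29882439 counts in the 4 libraries compared under JQ1, genes at a few counts have folds known only within wide limits. Simulated counts for the comparison under JQ1 had 200 changed genes per run, drawn from genes with enough counts, and 15398 genes tested. Of genes changed by 1 on the log2 scale 66.7% were recovered, and of those changed by 2, 94.7%. In the data 44% of genes were called, so these rates may not hold there.

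The labels give the libraries a shared number and nothing else to pair them, and with 2 numbers a correlation cannot settle it. Deviations of same-numbered libraries from their group means correlated positively in all 6 pairs of groups, from 0.058 to 0.185, with 0.15 between the JQ1 groups and 0.068 between the DMSO groups. With the replicate number as a block 7756 genes were called under JQ1, 7071 with DMSO and 1110 for the difference. Of the named genes under JQ1, 221 kept their side of the threshold with the block and 2 gained a call. The number of Wnt targets that were lower went from 5 to 8 with the block, and likewise with no low-count filter.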

Other observations

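Unmodified cells in 2iL, a medium with the MEK inhibitor PD0325901 and a component at 3 µM that the labels leave unnamed, give levels to set beside those of the knockout, 2 libraries for each agent. They differ from the serum/LIF libraries in medium and in earlier growth on feeder cells as well, and no test was made. The labels thus do not say whether GSK3 was inhibited in these libraries. Under JQ1 in 2iL Krt8 stood at 0.968 and 0.69 CPM, Cldn7 at 0.171 and 0.431 CPM and Pou3f1 at 0.626 and 1.03 CPM, and Esrp1 had no counts. These are all below the knockout in serum/LIF. Tbx3, at 358 and 309 CPM, and Sox21, at 92.4 and 78.3 CPM, were above it, and Nanog stood at 908 and 969 CPM.

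For other genes the knockout was the extreme. Plagl1 stood at 35.1 and 69.4 CPM and Cdx1 at 47.9 and 36.8 CPM under JQ1 in 2iL, between the unmodified and the knockout cells of serum/LIF. Dppa3, near 0 in the knockout, stood at 14.1 and 17.9 CPM there. Srebf2 stood at 429.9 and 412 CPM and Mycn at 104 and 129.8 CPM, both above the knockout. Hprt was low in these unmodified libraries too, at 0.569 and 0.388 CPM under JQ1 and 0.505 and 0.276 CPM with DMSO.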
